A study of Homo sapiens with 60 samples.

Results

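The immune checkpoint ligands and adenosine enzymes of tumour cells were followed as a set of 9 named genes, CD274, PDCD1LG2, CD276, VTCN1, CD47, PVR, LGALS9, NT5E and ENTPD1. They were taken by gene symbol from the 19712 genes of the count and TPM tables, and all 9 passed the filter on low counts in every line. The set was chosen with earlier results of these data known. RNA-seq was performed on 60 libraries from 4 EGFR-mutant human non-small cell lung cancer lines, PC9, HCC827, H1975 and HCC2935, each in 5 arms of 3 biological replicates. The first arm received DMSO vehicle for 24 h, and the acute arm received 500 nM osimertinib, an irreversible inhibitor of mutant EGFR, for 24 h. Both of these arms had first been grown without drug for 21 days. Drug-tolerant persisters (DTPs) were the cells left after 21 days in 500 nM osimertinib. The short washout arm was DTPs kept 24 h without drug, and the long washout arm was DTPs kept without drug until growth had resumed. That took 7 days in PC9, 4 days in HCC827, 3 days in H1975 and 10 days in HCC2935, so the time and the line cannot be told apart in the long washout. Each cell line is 1 model from 1 tumour, grown as a monolayer with no immune cells added, and RNA was measured, not protein at the cell surface.

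Checkpoint ligands are surface or secreted proteins through which a tumour cell meets inhibitory receptors on immune cells. In bulk RNA, fewer cells with a transcript and less of it in each cell cannot be told apart. CD274 (PD-L1) and PDCD1LG2 (PD-L2) bind PD-1 on T cells, and CD276 (B7-H3) and VTCN1 (B7-H4) belong to the same B7 family. CD47 signals to SIRPA on macrophages, PVR (CD155) binds TIGIT and CD226 on T and NK cells, and LGALS9 (galectin-9) binds HAVCR2 (TIM-3). ENTPD1 (CD39) and NT5E (CD73) act in series outside the cell and turn ATP into adenosine, which inhibits T cells through adenosine receptors.

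Libraries held a total of 17.7 to 49.1 (in units of 1000000) estimated counts, with medians of 19.7 in HCC827, 21.6 in HCC2935, 40.2 in PC9 and 42.9 in H1975. Across genes, replicates of a group correlated at 0.986 to 0.997, and the nearest library of each of the 60 came from its own line. Of 24 tests of 6 genes induced by ERK signalling (6 genes in each of the 4 lines), 21 were lower in acute osimertinib than in DMSO and 0 were higher. In the long washout against DTPs, 5 of the 6 genes were higher in PC9 and 4 in HCC2935, and 0 in HCC827 and in H1975. Against DMSO, the long washout had 4 of the 6 lower in PC9, 2 in HCC827, 5 in H1975 and 4 in HCC2935. Of the tests of all genes, 6.78% were higher in the first comparison and 22.1% lower in the second. The 5 epithelial markers summed to 1636 to 13640 TPM (transcripts per 1000000 transcripts) in a library, and the 8 leukocyte markers to 0.193 to 7.89 TPM. The 5 fibroblast markers reached 207.1 TPM in a library of H1975 and the 3 endothelial markers 22.0 TPM in a library of HCC2935.

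The PD-1 ligand genes are neighbours: CD274 lies at chr9:5450503-5470566 and PDCD1LG2 at chr9:5510570-5571254, both on the plus strand of GRCh38, with 40004 bases between them. VTCN1 lies at chr1:117143587-117210960 on the minus strand, CD276 at chr15:73683966-73714518 on the plus strand and CD47 at chr3:108043094-108091862 on the minus strand. NT5E lies at chr6:85449584-85495791 on the plus strand. ENTPD1, at chr10:95711779-95869695 on the plus strand, overlaps AL365273.1 and AL365273.2 on the same strand and the antisense gene ENTPD1-AS1. PVR, at chr19:44643798-44663583 on the plus strand, overlaps CEACAM19 on the same strand and AC243964.2 on the other. LGALS9, at chr17:27629798-27649560 on the plus strand, overlaps the AC015688.4 gene model and has the near-identical copies LGALS9B and LGALS9C. Whether counting used the strand is not given in the sources used here. Whether reads of ENTPD1 were kept apart from those of the genes it overlaps is therefore not known.

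Promoter sequences are shown for CD274 and VTCN1, of which CD274 was lower and VTCN1 higher in all 4 lines in acute osimertinib. NT5E was also lower and LGALS9 also called higher in all 4 lines there. The PC9 call of LGALS9 did not hold with the counts of its copies added (log2 fold change -0.41). Each run covers the bases from 250 to 51 before the RefSeq start, read along the gene's strand from the GRCh38.p14 tables of RefSeq, at chr9:5450292-5450491 (plus strand) for CD274 and chr1:117210978-117211177 (minus strand) for VTCN1. Capitals mark matches, on either strand, to GAAA followed after any 2 bases by GAAA (the interferon-stimulated response element, ISRE) or TTCNNNGAA (the STAT site GAS).
CD274 promoter: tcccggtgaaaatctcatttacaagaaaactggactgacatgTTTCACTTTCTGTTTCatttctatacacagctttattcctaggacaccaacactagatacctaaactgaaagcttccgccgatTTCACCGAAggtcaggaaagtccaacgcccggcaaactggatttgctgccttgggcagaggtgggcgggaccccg
VTCN1 promoter: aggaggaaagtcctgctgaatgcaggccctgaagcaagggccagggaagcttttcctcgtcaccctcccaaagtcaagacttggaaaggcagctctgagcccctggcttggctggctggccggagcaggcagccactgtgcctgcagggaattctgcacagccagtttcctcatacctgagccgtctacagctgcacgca
The CD274 run holds 2 overlapping ISRE matches, which begin 208 and 202 bases before the start, and 1 GAS match, which begins 125 bases before it. The VTCN1 run holds neither, nor the AP-1 letters TGANTCA or the forkhead letters TGTTTAC. Promoters were found for 8 of the 9 members, as 13 windows of 250 bases, and CD274 alone held a match to any of the 4 motifs. Among the 35116 promoters of the table, 3.02% held the ISRE letters, 6.57% the GAS letters, 6.57% the AP-1 letters and 2.98% the forkhead letters in a window of that length.

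In DMSO the 9 genes spanned a wide range of TPM, the scale that allows different genes to be compared. CD47, PVR, NT5E and CD276 were the abundant members in PC9, HCC827 and H1975, with group means between 59.1 and 197.3 TPM. CD274 was at 6.97 ± 2.31 TPM in PC9, 17.02 ± 8.34 in HCC827, 11.96 ± 2.44 in H1975 and 30.5 ± 1.18 in HCC2935 (mean ± SD, n = 3). PDCD1LG2, ENTPD1, VTCN1 and LGALS9 were at or below 3.31 TPM in those 3 lines. LGALS9 was the exception among lines, at 149.3 ± 31.9 TPM in HCC2935 against 0.880 to 1.46 TPM in the others.

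**Figure D1:**
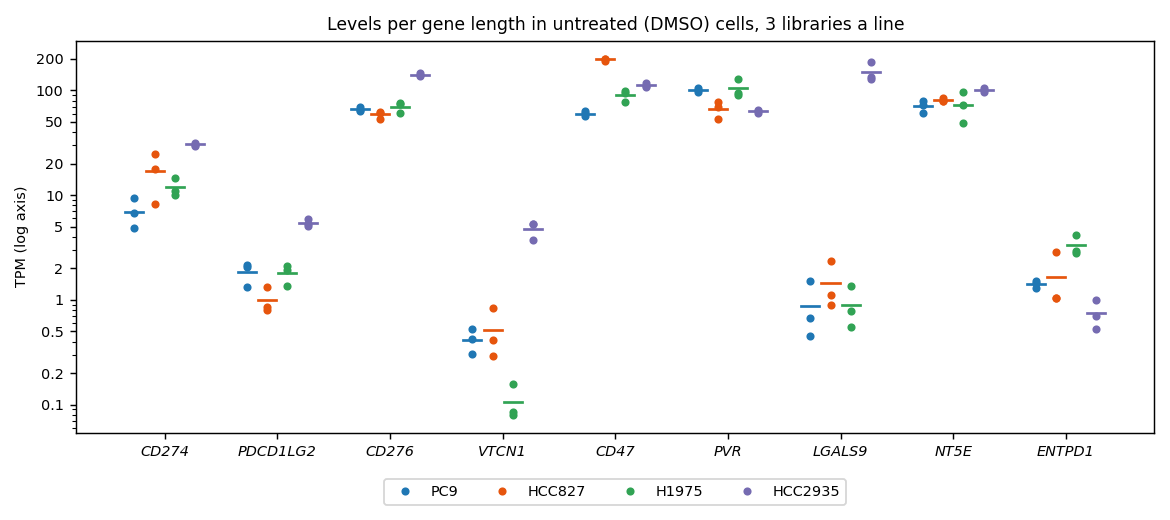
Level in TPM (log axis) of each of the 9 genes in the 3 DMSO libraries of each line; points are libraries and bars are means. CD47, PVR, NT5E and CD276 sit above 48 TPM in every library, whereas LGALS9 is above 127 TPM in HCC2935 and at or below 2.36 TPM in the other 3 lines.

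Lines were then compared gene by gene with edgeR on the counts of the 12 DMSO libraries, and levels are given as CPM (counts per 1000000 counts) scaled over all 60 libraries by TMM. Of the 54 tests of a member between a pair of lines, 34 passed an adjusted p of 0.05, where 64.7% of tests of all genes did. HCC2935 had the highest LGALS9, 128.5-fold over PC9 (adjusted p = 7.53e-09), 147.0-fold over H1975 and 83.4-fold over HCC827. LGALS9 in the other 3 lines did not pass against each other (adjusted p 0.157 to 0.733). VTCN1 was ordered HCC2935 (7.67 CPM), HCC827 (0.991), PC9 (0.883) and H1975 (0.192). The HCC827 and PC9 levels of VTCN1 did not differ beyond their spread (adjusted p = 0.729), while each other step of that order passed. CD274 was ordered HCC2935, HCC827, H1975 and PC9, and no pair of neighbours in that order passed by edgeR (adjusted p 0.0958 to 0.174). The HCC827 to HCC2935 step of CD274 passed by limma on log2 TPM (adjusted p = 0.0231) and without HCC827 DMSO replicate 2 (log2 difference -0.95, adjusted p = 0.0191), and the H1975 to PC9 step with library size only (adjusted p = 0.0399). PC9 nevertheless had less CD274 than HCC827 (2.21-fold, adjusted p = 0.00632) and than HCC2935 (3.29-fold, adjusted p = 0.000314). HCC827 DMSO replicate 1 stood apart from its mates in CD274, with 17.1 CPM against 51.5 and 37.9. Without it the step from HCC827 to H1975 passed (log2 difference 0.98, adjusted p = 0.00436). CD47 was highest in HCC827 and lowest in PC9, and its H1975 and HCC2935 levels did not pass by edgeR (log2 difference -0.16, adjusted p = 0.159) but did by limma on log2 TPM (-0.31, adjusted p = 0.00823). NT5E passed in 0 of its 6 pairs of lines by edgeR (adjusted p 0.122 to 0.823). By limma on log2 TPM it was lower in PC9 (adjusted p = 0.0255) and in H1975 (adjusted p = 0.0237) than in HCC2935. Without H1975 DMSO replicate 1, NT5E of H1975 was below each other line (adjusted p 0.006 to 0.0181). ENTPD1 was highest in H1975 and lowest in HCC2935, 4.93-fold apart (adjusted p = 6.7e-05). By edgeR, H1975 was above PC9 (adjusted p = 0.0234) and HCC827 (adjusted p = 0.0368) in ENTPD1. These 2 calls were lost in 3 and 4 of 12 refits without 1 library (adjusted p up to 0.081 and 0.1415). Without HCC827 DMSO replicate 1 the HCC827 to H1975 difference was -1.53 (adjusted p = 0.000243).

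Treatment moved the members in both directions. Over the 4 lines, 24 of the 36 tests of a member in acute osimertinib against DMSO passed (adjusted p under 0.05, edgeR quasi-likelihood test), 9 higher and 15 lower, where 51.0% of the tests of all genes passed, 26.5% higher and 24.5% lower. In DTPs against DMSO 27 of 36 passed, 14 higher and 13 lower, against 54.3% of all tests, 27.9% higher and 26.4% lower. In the long washout against DMSO 24 of 36 passed, 13 higher and 11 lower, against 45.9% of all tests, 23.8% higher and 22.1% lower. In DTPs against acute osimertinib 22 of 36 passed, 15 higher and 7 lower, where 36.4% of all tests passed, 18.8% higher and 17.6% lower. The median log2 fold change of the 36 tests was -0.12 in acute osimertinib (all genes 0.06), 0.06 in DTPs (all genes 0.04), 0.18 in the long washout (all genes 0.02), each against DMSO, and 0.30 in DTPs against acute osimertinib (all genes 0.02). By line, members passed in acute osimertinib in 7 of 9 in PC9 (66.2% of genes tested there), 4 in HCC827 (39.0%), 6 in H1975 (51.6%) and 7 in HCC2935 (47.1%). In DTPs against DMSO the counts were 9 (69.2%), 6 (43.4%), 5 (51.7%) and 7 (52.8%) in the same order of lines. In DTPs against acute osimertinib they were 7 (33.9%), 2 (29.4%), 7 (37.2%) and 6 (44.7%), and in the long washout against DMSO 6 (44.9%), 6 (42.0%), 5 (53.3%) and 7 (43.3%). The acute, DTP and long washout comparisons share the DMSO libraries of their line, so their values are given side by side and are not independent.

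**Figure D2:**
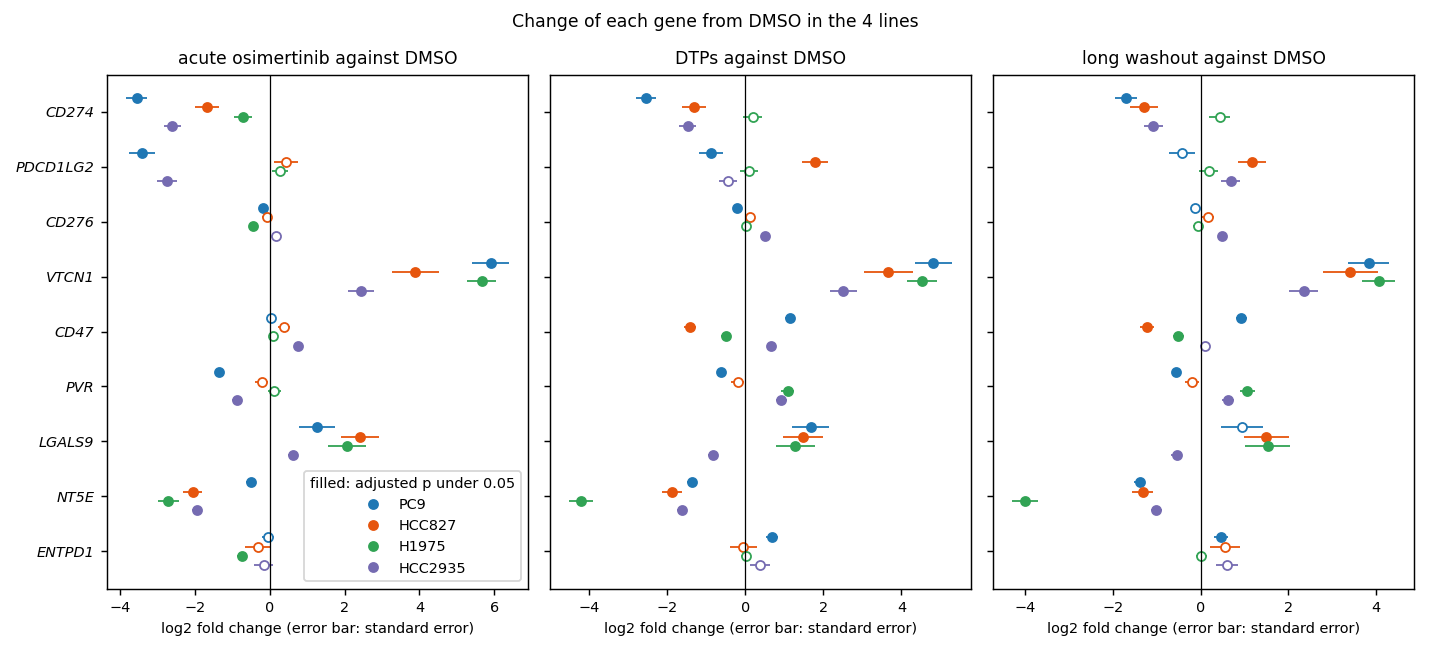
Log2 fold change from DMSO of the 9 genes in acute osimertinib, DTPs and the long washout, by line; error bars are standard errors and filled points have an adjusted p under 0.05. VTCN1 is at 2.35 or more in every line and panel, NT5E is below 0 in every line and panel, and CD47 and PVR in DTPs lie on both sides of 0.

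CD274, the gene of PD-L1, was lower in acute osimertinib than in DMSO in all 4 lines. PC9 held 15.5, 11.2 and 21.8 CPM in DMSO, 1.26, 1.41 and 1.52 in acute osimertinib and 2.22, 3.12 and 3.12 in DTPs. HCC2935 held 52.2, 53.6 and 53.2 CPM in DMSO, 6.61, 8.30 and 10.9 in acute osimertinib and 26.3, 14.5 and 16.1 in DTPs. In both lines every acute and DTP library was below every DMSO library. CD274 fell by 3.55 on the log2 scale in acute PC9 (SE 0.28, 11.7-fold, adjusted p = 1.49e-07) and by 2.60 in acute HCC2935 (SE 0.23, 6.06-fold, adjusted p = 3.7e-07). In DTPs it fell by 2.54 in PC9 (adjusted p = 1.58e-06) and by 1.47 in HCC2935 (adjusted p = 3.84e-05). Relative to acute osimertinib, the DTP level of CD274 was 2.02-fold higher in PC9 (adjusted p = 0.0118) and 2.18-fold higher in HCC2935 (adjusted p = 0.000836).

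In HCC827, CD274 was at 17.1, 51.5 and 37.9 CPM in DMSO, 11.7, 11.997 and 10.4 in acute osimertinib and 14.8, 15.04 and 12.6 in DTPs. The groups did not overlap, although DMSO replicate 1 was close to the treated libraries. The difference of DTPs from acute osimertinib did not pass by edgeR (log2 fold change 0.36, SE 0.32, adjusted p = 0.42). CD274 fell by 1.67 in acute osimertinib (adjusted p = 0.000826) and by 1.31 in DTPs (adjusted p = 0.00368) there, and by 2.00 and 1.64 without that replicate. H1975 was the line where DTPs held CD274 at the DMSO level, with 19.6, 28.0 and 21.8 CPM in DMSO, 18.3, 14.9 and 9.54 in acute osimertinib and 19.3, 30.2 and 31.2 in DTPs. The acute log2 fold change in H1975 was -0.71 (adjusted p = 0.0251) and did not pass without DMSO replicate 2 (adjusted p = 0.0946) or without acute replicate 3 (adjusted p = 0.107). The H1975 difference of DTPs from DMSO did not pass (log2 fold change 0.19, SE 0.24, adjusted p = 0.54), and that from acute osimertinib did (1.87-fold higher, adjusted p = 0.0108; adjusted p = 0.0515 without acute replicate 3).

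PDCD1LG2, the gene of the other PD-1 ligand, behaved differently from line to line. PC9 went from 2.70, 4.21 and 4.31 CPM in DMSO to 0.172, 0.377 and 0.506 in acute osimertinib and back to 2.52, 1.87 and 1.83 in DTPs. HCC2935 went from 9.05, 8.12 and 7.36 CPM to 0.714, 1.60 and 1.28 and back to 7.58, 5.63 and 4.75 in the same order. Acute libraries lay far below DMSO and DTP libraries in both lines. PDCD1LG2 fell by 3.42 in acute PC9 (SE 0.35, adjusted p = 1.15e-06) and by 2.76 in acute HCC2935 (SE 0.26, adjusted p = 7.62e-07). From acute osimertinib to DTPs it was 5.84-fold higher in PC9 (adjusted p = 0.000103) and 4.99-fold higher in HCC2935 (adjusted p = 4.22e-06). The PC9 fold changes rest on few counts in acute osimertinib. PDCD1LG2 did not reach 10 counts in every library of PC9.
Against DMSO, DTPs of PC9 were lower in PDCD1LG2 (log2 fold change -0.87, adjusted p = 0.0181), a call that did not pass when DMSO replicate 2 or 3 or DTP replicate 2 or 3 was left out (adjusted p 0.0557 to 0.063). HCC827 went the other way, from 1.45, 2.39 and 1.58 CPM in DMSO to 2.18, 2.09 and 3.15 in acute osimertinib and 7.47, 5.42 and 5.65 in DTPs. Its DTPs were all above its DMSO libraries, by 3.45-fold (log2 fold change 1.79, SE 0.32, adjusted p = 0.000471). H1975 stayed between 2.22 and 4.30 CPM in all 15 libraries, and its PDCD1LG2 passed in 0 of the 6 comparisons by edgeR.

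VTCN1, the gene of B7-H4, had the widest range of the 9, from a group mean of 0.192 CPM in H1975 DMSO to 54.5 CPM in acute PC9, 283.4-fold apart. In PC9 it was at 0.909, 1.10 and 0.636 CPM in DMSO (22 to 47 counts), 64.2, 45.5 and 53.6 in acute osimertinib and 25.5, 18.1 and 33.2 in DTPs. In H1975 it was at 0.157, 0.266 and 0.153 CPM in DMSO (7 to 12 counts), 6.59, 9.34 and 13.8 in acute osimertinib and 5.50, 2.86 and 5.45 in DTPs. No acute or DTP library came near a DMSO library in these lines. The acute log2 fold change of VTCN1 was 5.91 in PC9 (SE 0.49, adjusted p = 2.05e-07), 3.89 in HCC827 (SE 0.63, adjusted p = 0.000224), 5.66 in H1975 (SE 0.39, adjusted p = 4.31e-07) and 2.44 in HCC2935 (SE 0.34, adjusted p = 2.71e-05). In DTPs it was 4.82, 3.66, 4.53 and 2.51 in the same order of lines (adjusted p 7.71e-07 to 0.000306).

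HCC827 replicates were uneven in VTCN1, with 0.775, 0.574 and 1.62 CPM in DMSO, 16.0, 17.9 and 11.9 in acute osimertinib and 22.5, 10.2 and 5.32 in DTPs. HCC2935 began highest, at 8.68, 8.63 and 5.68 CPM in DMSO, and reached 39.3, 51.9 and 31.8 in acute osimertinib and 31.2, 64.0 and 34.9 in DTPs. Treated libraries were above DMSO libraries in both lines. DTPs had less VTCN1 than acute cells in PC9 (2.13-fold, adjusted p = 0.0354) and in H1975 (2.19-fold, adjusted p = 0.00844). The PC9 difference did not pass without acute replicate 1 or 3 or without DTP replicate 1 or 2 (adjusted p 0.068 to 0.129), and the H1975 difference did not pass without acute replicate 3 (adjusted p = 0.0576).

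CD276, the gene of B7-H3, moved little. Its group means lay between 78.2 and 265.2 CPM, the narrowest range of the 9 at 3.39-fold. The clearest change was in HCC2935, where 199, 185 and 182 CPM in DMSO became 248, 245 and 303 in DTPs, without overlap (1.42-fold higher, adjusted p = 0.000324). In H1975 CD276 fell by 0.44 in acute osimertinib (adjusted p = 0.00363), and its DTPs were 1.38-fold above acute cells (adjusted p = 0.00422). In PC9 the log2 fold change of CD276 was -0.18 in acute osimertinib (adjusted p = 0.0477) and -0.22 in DTPs (adjusted p = 0.0183). The acute call was lost in 5 of 6 refits without 1 library (adjusted p up to 0.174; only the refit without DMSO replicate 1 kept it). The DTP call was lost without DMSO replicate 3 or DTP replicate 1 (adjusted p up to 0.0793), and its direction turned on the TPM scale (log2 fold change 0.03, adjusted p = 0.688). HCC827 CD276 passed neither in acute osimertinib nor in DTPs against DMSO.

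**Figure D3:**
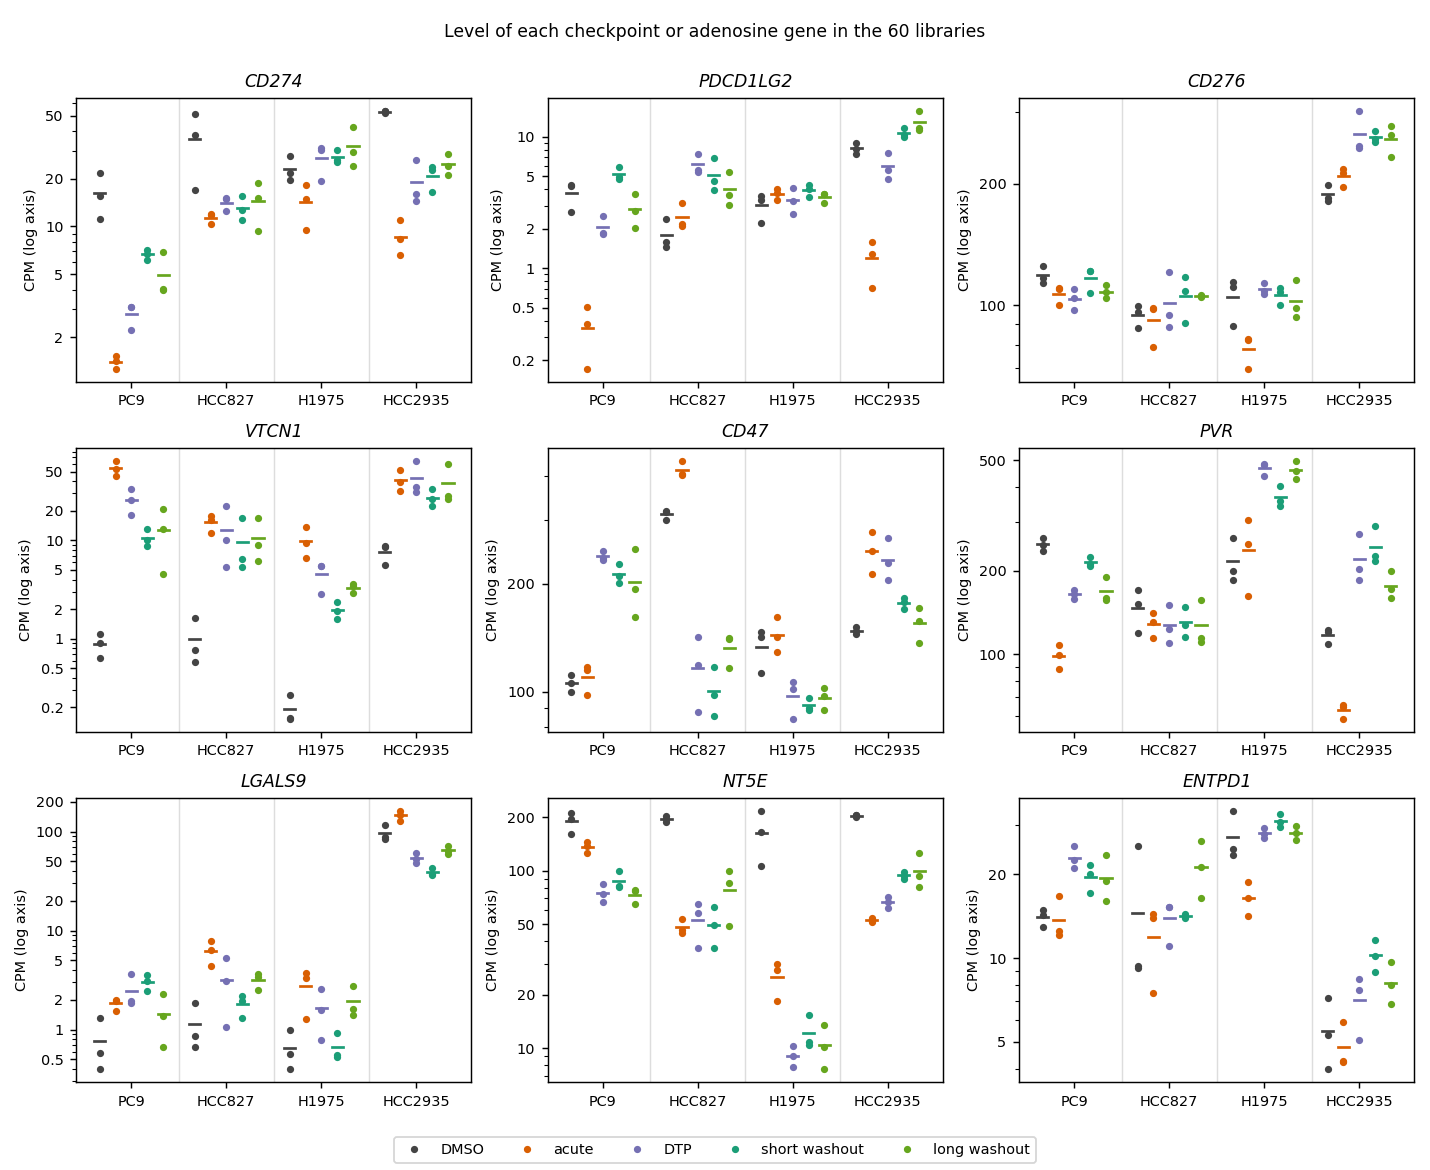
Level in CPM (log axis) of each of the 9 genes in all 60 libraries, by line and arm; points are libraries and bars are means of 3. VTCN1 is lowest in DMSO in every line, CD274 is lowest in acute osimertinib in every line by its mean, and LGALS9 in HCC2935 lies above 36 CPM in all 15 libraries.

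CD47, the gene of the macrophage checkpoint ligand, changed in every line in DTPs but not in the same direction. PC9 held 105.7, 99.7 and 111.4 CPM in DMSO, 98.3, 117.5 and 115.2 in acute osimertinib and 247, 237 and 234 in DTPs. HCC827 held 301, 317 and 318 CPM in DMSO, 402, 405 and 439 in acute osimertinib and 119, 142 and 87.7 in DTPs. So PC9 DTPs were above, and HCC827 DTPs below, every library of the other arms named here. CD47 was 2.23-fold higher in DTPs than in DMSO in PC9 (log2 fold change 1.16, SE 0.13, adjusted p = 2.17e-06) and 1.59-fold higher in HCC2935 (adjusted p = 9.73e-05). It was 2.66-fold lower in HCC827 DTPs (log2 fold change -1.41, SE 0.15, adjusted p = 7.26e-06) and 1.40-fold lower in H1975 DTPs (adjusted p = 0.00361). In acute osimertinib CD47 passed in HCC2935 alone, where 145, 148 and 151 CPM became 247, 278 and 213 (1.69-fold higher, adjusted p = 4.45e-05). The HCC827 acute difference of 1.30-fold was without overlap but had an adjusted p of 0.0553 by edgeR and 0.0298 by DESeq2.

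PVR, the gene of the TIGIT ligand CD155, also split by line. PC9 held 236, 263 and 247 CPM in DMSO, 88.7, 108 and 99.3 in acute osimertinib and 165, 158 and 170 in DTPs. HCC2935 held 122, 121 and 109 CPM in DMSO, 58.6, 65.5 and 64.7 in acute osimertinib and 272, 185 and 203 in DTPs. Acute libraries were lowest in both lines, whereas DTPs ended below DMSO in PC9 and above it in HCC2935. The acute log2 fold change of PVR was -1.36 in PC9 (SE 0.09, adjusted p = 3.94e-08) and -0.88 in HCC2935 (SE 0.14, adjusted p = 0.000106). In DTPs PVR was 1.54-fold lower than in DMSO in PC9 (adjusted p = 1.92e-05) and 1.89-fold higher in HCC2935 (adjusted p = 4.52e-05). H1975 reached the highest level, from 185, 262 and 200.3 CPM in DMSO to 482.3, 481.9 and 439.7 in DTPs (2.12-fold, adjusted p = 0.000132), with acute libraries at 303, 249 and 162 that overlapped DMSO. HCC827 PVR passed in 0 of the 6 comparisons by edgeR, and the 15 libraries lay between 109.5 and 169.8 CPM.

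LGALS9, the gene of galectin-9, was low in 3 lines and abundant in HCC2935. In HCC2935 it was at 84.2, 88.4 and 116 CPM in DMSO, 146, 161 and 129 in acute osimertinib and 47.8, 60.3 and 52.6 in DTPs. The 3 groups did not overlap. LGALS9 was 1.53-fold higher in acute HCC2935 (adjusted p = 0.000985) and 1.78-fold lower in its DTPs (adjusted p = 6.22e-05) than in DMSO. HCC827 went from 0.672, 0.860 and 1.85 CPM in DMSO to 7.93, 6.33 and 4.38 in acute osimertinib (5.33-fold, adjusted p = 0.00194), and H1975 from 0.984, 0.399 and 0.568 to 1.29, 3.72 and 3.32 (4.19-fold, adjusted p = 0.00357). Acute libraries were above DMSO libraries in both.
Acute PC9 was 2.39-fold above DMSO in LGALS9 (adjusted p = 0.0308), a call lost without DMSO replicate 1 or 2 or acute replicate 1 or 2 (adjusted p up to 0.124). DTPs were above DMSO in PC9 (3.20-fold, adjusted p = 0.00588), in HCC827 (2.80-fold, adjusted p = 0.0286) and in H1975 (2.44-fold, adjusted p = 0.0456), and in the latter pair of lines their libraries overlapped DMSO. Each of the HCC827 and H1975 calls was lost in 4 of 6 refits without 1 library, with adjusted p up to 0.181 and 0.226. In HCC827 these were the refits without DMSO or DTP replicate 1 or 2, and in H1975 those without DMSO replicate 2 or 3 or DTP replicate 1 or 3. With the counts of LGALS9B and LGALS9C added to those of LGALS9, the PC9 log2 fold changes became -0.41 in acute osimertinib (adjusted p = 0.235) and 0.19 in DTPs (adjusted p = 0.574), and H1975 DTPs no longer passed (adjusted p = 0.374). The HCC827 and HCC2935 changes and the acute change of H1975 (log2 fold change 1.37, adjusted p = 0.0407) passed with the copies added.

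NT5E, the gene of the enzyme CD73 that makes adenosine, was lower than in DMSO in all 4 lines, in acute osimertinib and in DTPs. H1975 held 217, 107 and 166 CPM in DMSO, 18.5, 27.6 and 29.9 in acute osimertinib and 7.86, 10.3 and 9.10 in DTPs. HCC2935 held 200.4, 207 and 207 CPM in DMSO, 54.1, 51.3 and 52.5 in acute osimertinib and 66.7, 61.6 and 70.8 in DTPs. HCC827 held 189, 205 and 196 CPM in DMSO, 46.4, 44.7 and 53.7 in acute osimertinib and 65.0, 57.5 and 36.9 in DTPs. In these lines no treated library reached a DMSO library.
The log2 fold change of NT5E in DTPs was -4.20 in H1975 (SE 0.30, 18.4-fold, adjusted p = 2.25e-07), -1.61 in HCC2935 (SE 0.13, adjusted p = 5.95e-08) and -1.88 in HCC827 (SE 0.25, adjusted p = 4.39e-05). In acute osimertinib it was -2.71 in H1975 (adjusted p = 3.24e-06), -1.94 in HCC2935 (adjusted p = 2.55e-08) and -2.06 in HCC827 (adjusted p = 2.37e-05). PC9 moved least at 24 h, from 162, 197 and 213 CPM to 125, 138 and 146 (1.42-fold lower, adjusted p = 0.00213), and reached 84.7, 74.5 and 67.0 in DTPs (2.57-fold lower than DMSO, adjusted p = 5.81e-07). DTPs were below acute cells in NT5E in PC9 (1.81-fold, adjusted p = 0.000145) and in H1975 (2.81-fold, adjusted p = 0.00091). HCC2935 went the other way by 1.25-fold (adjusted p = 0.0437), a call that only the refit without DTP replicate 2 kept (adjusted p up to 0.137).

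ENTPD1, the gene of the enzyme CD39 one step before, was the member that passed least often against DMSO. It passed in acute osimertinib in H1975 alone, where 23.4, 33.8 and 24.7 CPM became 18.8, 16.5 and 14.2 (log2 fold change -0.74, SE 0.13, adjusted p = 0.000277). It passed in DTPs in PC9 alone, where 14.9, 13.0 and 14.3 CPM in DMSO became 21.0, 25.4 and 22.5 (1.61-fold higher, adjusted p = 0.00137). Both changes were without overlap. H1975 DTPs, at 27.1, 29.4 and 28.0 CPM, were back within the DMSO values. HCC827 DMSO replicate 1 again stood apart, with 25.2 CPM against 9.18 and 9.34 in its mates. With it HCC827 ENTPD1 passed in none of the 6 comparisons by edgeR (0 at an unadjusted p under 0.05), and without it the long washout was above DMSO (log2 fold change 1.21, adjusted p = 0.00388).

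In the short washout against DTPs, after 24 h without drug, 4 of 36 tests passed by edgeR, 4 higher and 0 lower, where 2.27% of the tests of all genes passed, 1.56% higher and 0.713% lower. PC9 CD274 went from 2.22, 3.12 and 3.12 CPM in DTPs to 6.67, 6.18 and 7.11 (2.37-fold, adjusted p = 0.0176), without overlap. PC9 PDCD1LG2 went from 2.52, 1.87 and 1.83 CPM to 4.94, 5.92 and 4.76 (2.52-fold, adjusted p = 0.0231), which put all 3 libraries above the DMSO libraries. PC9 PVR went from 165, 158 and 170 CPM to 225, 211 and 208.0 (1.31-fold, adjusted p = 0.0215). The fourth was NT5E in HCC2935, from 66.7, 61.6 and 70.8 CPM to 99.0, 90.2 and 93.8 (1.43-fold, adjusted p = 0.0344). These calls were near the threshold. CD274 passed in 2 of 6 refits without 1 library (lost without DTP or short washout replicate 1 or 2; adjusted p up to 0.0698), PDCD1LG2 in 2 (lost without DTP replicate 2 or 3 or short washout replicate 1 or 2; up to 0.104), PVR in 1 (kept without short washout replicate 3; up to 0.1) and NT5E in 1 (kept without DTP replicate 3; up to 0.18). VTCN1 levels after 24 h were below the DTP levels without overlap in PC9 (2.39-fold, adjusted p = 0.0637) and in H1975 (2.32-fold, adjusted p = 0.1045), and both passed by DESeq2 (adjusted p 0.0414 and 0.0106). By DESeq2 9 of 36 member tests passed, where 3321 tests of all genes did, against 1358 by edgeR. Among the 9 were also CD47 (log2 fold change -0.39, adjusted p = 0.0187) and LGALS9 (-0.44, adjusted p = 0.0285) as lower in HCC2935. The count and the absence of lower calls thus depend on the tool.

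The short washout calls were made in lines where other genes changed too. PC9 called 880 genes (5.92% of those tested) and HCC2935 469 (3.14%), while HCC827 called 0 (0.00%) and H1975 9 (0.0585%). At an unadjusted p under 0.05 HCC827 had 291 of 14665 genes, fewer than that threshold alone would pass with no change. By DESeq2 it had 0. Of the 9 members HCC827 had 0 at an unadjusted p under 0.05 and 0 by DESeq2, and H1975 had 2 and 1. Of the 15379 genes tested in H1975, 2110 and 507 passed in the same 2 ways. In H1975 the DTP and short washout libraries of the same replicate number deviated together. In a fit of those 6 libraries with the replicate number as a block 1697 genes passed, 4 of them members. These were VTCN1 (log2 fold change -1.18, adjusted p = 0.00522), PVR (-0.33, adjusted p = 0.0104), LGALS9 (-1.20, adjusted p = 0.0451) and NT5E (0.43, adjusted p = 0.046). A block in the fit of all 15 libraries of H1975 called 56 genes and 0 members.

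After the long washout 4 of 36 member tests against DTPs passed, 3 higher and 1 lower, where 12.2% of the tests of all genes passed, 6.78% higher and 5.40% lower. In HCC2935 PDCD1LG2 rose from 7.58, 5.63 and 4.75 CPM in DTPs to 11.7, 15.8 and 11.2 (2.18-fold, adjusted p = 0.00489), above all DMSO libraries. NT5E rose there from 66.7, 61.6 and 70.8 CPM to 80.7, 93.4 and 126 (1.52-fold, adjusted p = 0.00521), a call lost in a fit of those 6 libraries alone (adjusted p = 0.0631). CD47 fell there from 228, 267.5 and 205 CPM to 171, 158 and 137 (1.49-fold lower, adjusted p = 0.00349), where they overlapped DMSO. In PC9 CD274 rose from 2.22, 3.12 and 3.12 CPM to 3.98, 6.90 and 4.00 (1.78-fold, adjusted p = 0.0231), a call lost without DTP replicate 1 (adjusted p = 0.0847) or long washout replicate 2 (adjusted p = 0.151) and in a fit of the 6 libraries alone (adjusted p = 0.0732). Without PC9 long washout replicate 3 the count of calls was 7 of 36, with CD47, VTCN1 and LGALS9 of PC9 added, each lower than in DTPs. Over the refits without 1 library, the count of all genes called ran from 4921 to 9146, against 7291 with every library. In this comparison PC9 called 37.2% of genes, HCC2935 11.8%, H1975 1 gene (0.00650%) and HCC827 0 (0.00%). At an unadjusted p under 0.05 HCC827 had 502 of 14665 genes, again fewer than that threshold alone would pass. By DESeq2 it had 3. No member of HCC827 or H1975 passed by edgeR or DESeq2, with 1 (NT5E) and 0 at an unadjusted p under 0.05.

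The long washout was also compared with the DMSO libraries that served for the DTPs. VTCN1 was higher than in DMSO in all 4 lines, at 12.9, 4.57 and 20.9 CPM in PC9, 9.06, 6.23 and 16.8 in HCC827, 3.41, 3.60 and 2.89 in H1975 and 60.4, 26.6 and 28.4 in HCC2935. Its log2 fold changes were 3.83, 3.42, 4.06 and 2.35 (adjusted p 1.65e-06 to 0.000552). NT5E was lower in all 4 lines, with log2 fold changes of -1.38, -1.32, -4.00 and -1.01 in the order PC9, HCC827, H1975 and HCC2935 (adjusted p 3.41e-07 to 0.000653). CD274 was lower in PC9 (3.26-fold, adjusted p = 0.000152), HCC827 (2.44-fold, adjusted p = 0.00441) and HCC2935 (2.11-fold, adjusted p = 0.000844). In HCC827 the long washout libraries, at 15.2, 9.29 and 18.8 CPM, overlapped DMSO replicate 1. H1975 CD274 did not pass (log2 fold change 0.44, SE 0.24, adjusted p = 0.146).

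The other members after the long washout differed from DMSO in some lines and not in others. CD47 was higher than in DMSO in PC9 (1.90-fold, adjusted p = 6.68e-05) and lower in HCC827 (2.33-fold, adjusted p = 2.64e-05) and H1975 (1.42-fold, adjusted p = 0.00279), and did not pass in HCC2935 (log2 fold change 0.10, adjusted p = 0.516). PVR was lower in PC9 (1.47-fold, adjusted p = 0.000185) and higher in H1975 (2.09-fold, adjusted p = 0.000139) and HCC2935 (1.53-fold, adjusted p = 0.00199). PDCD1LG2 was higher in HCC827 (2.24-fold, adjusted p = 0.00933) and in HCC2935 (1.61-fold, adjusted p = 0.0216), and did not pass in PC9 (log2 fold change -0.42, adjusted p = 0.27). The HCC2935 call of PDCD1LG2 was lost without DMSO replicate 2 or 3 or long washout replicate 2 (adjusted p up to 0.12). LGALS9 was lower in HCC2935 (1.46-fold, adjusted p = 0.00293) and higher in HCC827 (2.82-fold, adjusted p = 0.0288) and H1975 (2.88-fold, adjusted p = 0.0197), and did not pass in PC9 (adjusted p = 0.127). The HCC827 call of LGALS9 was lost without DMSO replicate 1 or 2 or long washout replicate 2 or 3 (adjusted p up to 0.104), and that of H1975 without DMSO replicate 2 or 3 or long washout replicate 2 (up to 0.0928) or with the copies of the gene added (adjusted p = 0.205). CD276 was higher in HCC2935 (1.40-fold, adjusted p = 0.00071) and did not pass in PC9 (log2 fold change -0.14, adjusted p = 0.144). ENTPD1 was higher in PC9 (1.38-fold, adjusted p = 0.0263), a call lost without DMSO replicate 2 or 3 or long washout replicate 3 (adjusted p up to 0.126).

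Whether the lines differed was tested directly, with 1 fit to all 60 libraries and an F-test of the difference among the 4 effects. In acute osimertinib 8 of the 9 members differed between lines (41.4% of all genes did), and in DTPs 8 of 9 (63.9% of all genes did). ENTPD1 was the member that did not pass, with adjusted p = 0.332 in acute osimertinib and 0.181 in DTPs. The strongest differences were PDCD1LG2 in acute osimertinib (adjusted p = 2.95e-11), where log2 fold changes ran from -3.42 in PC9 to 0.43 in HCC827, and CD47 in DTPs (adjusted p = 1.02e-14), where they ran from -1.41 in HCC827 to 1.16 in PC9. VTCN1 and NT5E differed between lines in size and not in direction. When all libraries of 1 replicate number were left out, the acute difference did not pass for CD47 without replicate 1 (adjusted p = 0.349), for CD276 without replicate 1 (0.120) or 3 (0.0797) and for LGALS9 without replicate 1 (0.0603) or 2 (0.204). The DTP difference of VTCN1 did not pass without replicate 1 (0.0968), and the acute difference of ENTPD1 passed without it (0.0271).

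Other genes of these pathways were read from lists of related genes, each gene tested in each line where it passed the filter. Among 18 other ligands and partners of checkpoints, 33 of 53 tests were higher and 8 lower in DTPs than in DMSO, with a median log2 fold change of 0.81 (all genes 0.04), where 27.9% of the tests of all genes were higher and 26.4% lower. By line, 8 of 12 tests were higher and 3 lower in PC9 (median 0.90) and 12 of 15 higher and 1 lower in HCC827 (median 1.26). In H1975 9 of 13 were higher and 2 lower (median 1.19), and in HCC2935 4 of 13 higher and 2 lower (median 0.19). Of all genes tested, 5305 were higher and 4984 lower of 14866 in PC9, and 3373 and 2986 of 14665 in HCC827. The counts were 4002 and 3948 of 15379 in H1975, and 4032 and 3858 of 14946 in HCC2935. TNFSF4 (OX40 ligand), a costimulatory ligand of T cells, rose in all 4 lines, with log2 fold changes of 2.79, 1.78, 2.23 and 2.68 in PC9, HCC827, H1975 and HCC2935. Its levels stayed low, at most 2.82 CPM in a DTP library. TNFRSF14 (HVEM), the ligand of BTLA, rose in PC9 (4.58) and HCC827 (1.26). CD24, the ligand of SIGLEC10 on macrophages, rose in PC9 (2.99), HCC827 (0.50) and H1975 (1.41).
Of 5 post-translational partners of PD-L1, CD47 and B7-H3, 7 of 18 tests were higher and 4 lower in DTPs (median 0.13, all genes 0.04), where 27.9% of the tests of all genes were higher and 26.4% lower. CMTM6, which keeps PD-L1 protein from being degraded, fell by 0.21 in PC9 (adjusted p = 0.0424) and by 0.32 in HCC827 (adjusted p = 0.00643). SPPL3, a protease of the Golgi, rose by 0.25 in PC9, 0.34 in H1975 and 0.49 in HCC2935.

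**Figure D4:**
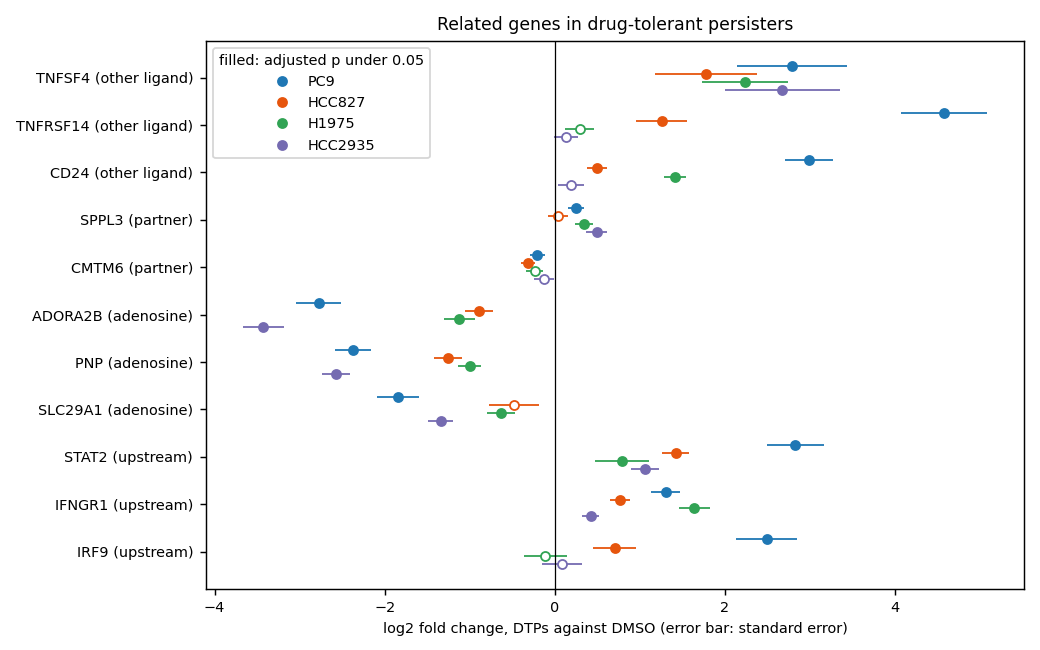
Log2 fold change of DTPs against DMSO for 11 related genes in the 4 lines; error bars are standard errors and filled points have an adjusted p under 0.05. ADORA2B and PNP are below 0 and STAT2, IFNGR1 and TNFSF4 above 0 in every line.

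Of 74 tests of the 20 genes of the adenosine and ATP list, 14 were higher and 33 lower in DTPs than in DMSO, with a median log2 fold change of -0.28 (all genes 0.04), where 27.9% of the tests of all genes were higher and 26.4% lower. By line, PC9 had 9 of 17 lower and 4 higher (median -0.82), and HCC827 5 of 19 lower and 4 higher (median 0.21). H1975 had 6 of 19 lower and 4 higher (median -0.0021), and HCC2935 13 of 19 lower and 2 higher (median -0.83). The counts of all genes by line are given with the other ligands above. ADORA2B, an adenosine receptor, went from 38.7, 35.3 and 39.4 CPM in PC9 DMSO to 6.25, 5.24 and 5.29 in DTPs, and from 28.5, 26.5 and 24.4 in HCC2935 DMSO to 2.82, 1.68 and 2.82. It fell in all 4 lines, with log2 fold changes of -2.78 in PC9, -0.89 in HCC827, -1.12 in H1975 and -3.43 in HCC2935. PNP, which breaks down inosine made from adenosine, also fell in all 4 lines (-2.576 to -1.003). SLC29A1, the nucleoside transporter ENT1, fell in PC9 (-1.85), H1975 (-0.64) and HCC2935 (-1.34).

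Interferon, JAK-STAT and NF-kB signalling are known to induce CD274. Of 60 tests of 15 genes of these pathways, 27 were higher and 6 lower in DTPs than in DMSO (median 0.26, all genes 0.04), where 27.9% of the tests of all genes were higher and 26.4% lower. In acute osimertinib 27 were higher and 5 lower (median 0.31, all genes 0.06), where 26.5% of all tests were higher and 24.5% lower. In DTPs the counts higher and lower of 15 were 10 and 2 in PC9 (median 0.43) and 6 and 0 in HCC827 (0.24). They were 7 and 2 in H1975 (-0.044) and 4 and 2 in HCC2935 (0.16). For all genes, the counts by line are those given with the other ligands above. STAT2, a transducer of type I interferon signals, went from 16.5, 20.8 and 25.4 CPM in PC9 DMSO to 132, 170 and 151 in DTPs. It rose in DTPs of all 4 lines, by 2.83, 1.42, 0.79 and 1.06 in the order PC9, HCC827, H1975 and HCC2935. IFNGR1, a chain of the interferon-gamma receptor, rose in DTPs of all 4 lines (0.42 to 1.64) but fell by 0.50 in acute HCC2935 (adjusted p = 0.00091). IRF9, the partner of STAT2, rose in PC9 (2.49) and HCC827 (0.70). Receptors and binding partners of the members were tested 21 times over 8 genes, and 6 tests were higher and 2 lower in DTPs than in DMSO, where 27.9% of the tests of all genes were higher and 26.4% lower. SIRPA, the receptor of CD47, rose in HCC827 (1.97), H1975 (0.39) and HCC2935 (2.20) and fell in PC9 (-1.43). RGMB, a binding partner of PD-L2, rose in HCC827 (1.27) and H1975 (0.62) and fell in PC9 (-0.48). Both were named after their values were seen.

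Across the 20 groups, with the mean of each line removed, the log2 level of VTCN1 followed that of CD274 inversely (Pearson r = -0.85) and that of NT5E less closely (r = -0.61). PVR and PDCD1LG2 moved together (r = 0.66), and so did CD276 and ENTPD1 (r = 0.68). CD274 and PDCD1LG2, the neighbours on chromosome 9, were at r = 0.53. The points are means of 3 libraries in 5 arms of 4 lines, and arms of a line share cells and depth, so these values are descriptions. The 3 genes of 13483 with a pattern most like VTCN1 were SHISA4 (r = 0.98), ERMAP (0.96) and SCPEP1 (0.96). Those most like CD274 were ASCC3 (0.94), C12orf29 (0.93) and DDX21 (0.93), and those most like NT5E were GPAT3 (0.94), SARNP (0.94) and C15orf39 (0.93). For PDCD1LG2 they were ULBP2 (0.92) and RAET1L (0.91), ligands of the NK cell receptor NKG2D, and SHC3 (0.91).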

How the data were processed

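RNA-seq of 60 libraries was analysed from the deposited tables. The authors gave 2 tables with a column for each library, 1 of estimated counts and 1 of log2 TPM, whose lowest value is the log2 of 0.01, taken as the pseudocount. The submitters' processing notes name HISAT2 2.1.0, Salmon 0.8.2 and hg38, and the annotation and counting options are not given in the sources used here. Both tables hold 19712 genes, and TPM values of a library summed to 0.806 to 0.891 (in units of 1000000). Estimated counts were rounded to whole numbers. For each line, edgeR 4.0.16 (R 4.3.3) was run on its 15 libraries (TMM, default filterByExpr, glmQLFit and glmQLFTest), with Benjamini-Hochberg adjustment over all genes tested and a threshold of 0.05. DMSO levels were compared in the 12 DMSO libraries, and differences between lines in all 60. Alternatives used DESeq2 1.42.0, limma 3.58.1, other normalizations, filters and sample sets, a replicate block and refits without each library. The 9 members, the lists and the tests were chosen with earlier results of these data known. From each list, up to 3 genes were named, those with the largest mean log2 fold change of DTPs against DMSO among genes tested in 4 lines, called in at least 2 of them and not called in the opposite direction. Motifs were searched in RefSeq promoters of GRCh38.p14, and gene positions are those of GRCh38. Scripts were tested on simulated data. Replicates are labelled as biological, and p-values measure the spread between them. Errors are SDs over replicates or SEs of the fit, and depth limits VTCN1, LGALS9 and PDCD1LG2, the members with the fewest counts. Same-numbered replicates deviated together, with all 3 correlations above 0.1, in 3 of 24 line comparisons. These were acute osimertinib against DMSO in HCC2935 (0.188, 0.126 and 0.357) and the short washout against DTPs in HCC827 (0.694, 0.402 and 0.52) and H1975 (0.249, 0.599 and 0.539).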

Additional observations from a re-analysis of the deposited data

Results flagged for a closer look

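The effect of osimertinib differed between the 4 lines for 8 of the 9 genes, by edgeR's F-test of the difference in 1 fit to all 60 libraries. Of all genes, 41.4% differed in acute osimertinib and 63.9% in DTPs. In acute osimertinib against DMSO the adjusted p was 2.953e-11 for PDCD1LG2, 1.966e-06 for PVR, 1.988e-06 for NT5E, 3.725e-06 for CD274, 0.0001143 for VTCN1, 0.007828 for CD47, 0.00954 for CD276 and 0.02813 for LGALS9 by edgeR. In DTPs against DMSO it was 1.021e-14 for CD47, 6.153e-10 for NT5E, 3.452e-09 for PVR, 1.221e-06 for PDCD1LG2, 3.064e-06 for CD274, 0.0002125 for LGALS9, 0.0004835 for CD276 and 0.01102 for VTCN1 by edgeR. In DTPs, CD47 was called higher in PC9 and HCC2935 and lower in HCC827 and H1975. PVR was called lower in PC9 and higher in H1975 and HCC2935. LGALS9 was called lower in HCC2935 and higher in the other 3 lines. The HCC827 and H1975 calls of LGALS9 were each lost in 4 of 6 refits without 1 library. With LGALS9B and LGALS9C added, PC9 and H1975 did not pass by edgeR (adjusted p 0.574 and 0.374). The F-test was not run with these copies added. When all libraries of 1 replicate number were left out, some differences between lines did not pass the F-test. These were the acute differences of CD47 (adjusted p up to 0.349), CD276 (0.120) and LGALS9 (0.204) and the DTP difference of VTCN1 (0.0968).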

How the results depend on the processing

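Of the 24 acute, 27 DTP and 24 long washout calls of members against DMSO, 19, 22 and 19 held in every setting tried and without each library, as did 17 of 22 calls of DTPs against acute osimertinib, 0 of 4 of the short washout and 0 of 4 of the long washout against DTPs. For the short washout, members called (4) became 9 by DESeq2 and 9 with a replicate block in the own 6 libraries of each contrast, a fit added after seeing the data, and genes called (1358) became 3724 in the own 6 libraries, 3321 by DESeq2 and 3966 with that block. For the long washout against DTPs, members called (4) were 2 in the own 6 libraries and 1 with the block, which called none of the 4 and, in their place, VTCN1 in PC9 (adjusted p = 0.0436), and genes called (7291) became 3243 and 2200. Without each library in turn, the short washout count ran from 1 (without PC9 DTP replicate 2 or PC9 short washout replicate 1 or 2; 2 without PC9 DTP replicate 1 or 3) to 5 members and from 583 to 1939 genes (lowest without PC9 DTP replicate 2, highest without H1975 DTP replicate 2), and the long washout count from 3 to 7 members (without PC9 long washout replicate 3). Some directions turned, among them those of CD276 in DTPs against DMSO and LGALS9 in acute osimertinib in PC9, which had passed the test. On the log2 scale, CD276 in PC9 was 0.03462 and 0.03413 (DTPs against DMSO) and 0.233 and 0.2294 (DTPs against acute) by limma on log2 TPM with pseudocounts of 0.01 and 1, and 0.1064 (DTPs against acute) with library size only; its range without each library was -0.08262 to 0.002331. With LGALS9B and LGALS9C added, also after seeing the data, LGALS9 in PC9 was -0.4115 in acute osimertinib and -0.1328 in the long washout. Between PC9 and H1975 in DMSO, NT5E was -0.02937 with library size only and PVR -0.04679 with library size only and -0.03824 and -0.03803 by limma. ENTPD1 between PC9 and HCC827 ran from -0.3016 to 0.5898 (without HCC827 DMSO replicate 1). With the block in the own 6 libraries, acute H1975 had 3 members called in place of 6 (without CD274, CD276 and LGALS9, adjusted p 0.0507 to 0.0574). The cause was not tested. Outside the 3 comparisons where replicate numbers paired, same-numbered samples did not all deviate together. The labels do not say whether they were handled together. Over all 24 comparisons, those 3 included, a library correlated best with its own number in 26 of 72 cases. In acute HCC2935 and the HCC827 short washout the block changed no call of a member, and in the H1975 short washout it made 4 calls in the own 6 libraries and 0 in all 15.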
